A study of Mus musculus with 4 samples.

Results

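The genes described here encode the protein parts of the cytosolic ribosome. They were chosen by name: a protein-coding gene whose symbol begins with Rpl or Rps followed by a digit or an a, named through the accession of its array probe, with Rps6k kinases (10 genes) and pseudogenes (4 genes) left out. The rule found 84 genes among 20832 named on the array. Of these, 43 encode large-subunit proteins and 31 encode small-subunit proteins. Another 8 are paralogs of such proteins, and 2 (Rps19bp1 and Rps23rg1) carry a matching symbol but encode no subunit protein. The study measured RNA of the entire colon from C57BL/6J mice aged 14 weeks, wild-type (WT) or lacking STAP-2 (STAP-2-/-), an adaptor protein of cytokine and innate immune signalling. All mice, WT included, had received 1.75% dextran sulfate sodium (DSS) to cause acute colitis, so no colon without DSS was measured. The labels differ on how long DSS was given: 1 says 7 days and another 3 days. Each array carried RNA pooled from 3 mice, with 2 WT pools and 2 STAP-2-/- pools, numbered 1 and 2 within each genotype.

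A ribosome is built from ribosomal RNA and a fixed set of proteins, most of them present once per particle. Their messenger RNAs are among the most abundant of any cell. Cells make the proteins in matched amounts, and growth signals through mTOR set how strongly their messages are translated, through a run of pyrimidines at the very start of the RNA (the TOP motif). A tissue with many growing cells, such as the intestinal epithelium, needs a large supply of ribosomes.

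The start regions of 10 members are shown because they are 7 of the 8 subunit genes with the most extreme differences between the pool numbers, the S6 kinase substrate Rps6, and 2 paralogs whose probes gave no signal above background. Each run is 30 bases of RefSeq sequence (GRCm38.p6), 5′ to 3′ on the gene's strand, with 15 bases before the annotated start and 15 from it on. Capitals mark the run of C and T that holds the annotated first base of the RNA. Where transcription starts in these colons was not measured.
Rpl36a (chrX:134585639-134585668, plus strand): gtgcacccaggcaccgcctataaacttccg
Rpl9 (chr5:65391417-65391446, minus strand): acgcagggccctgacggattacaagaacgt
Rps18 (chr17:33955651-33955680, minus strand): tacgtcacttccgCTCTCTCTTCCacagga
Rpl28 (chr7:4792950-4792979, plus strand): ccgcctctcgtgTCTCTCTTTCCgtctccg
Rpl27a (chr7:109519180-109519209, plus strand): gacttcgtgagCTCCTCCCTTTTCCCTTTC
Rpl27 (chr11:101442230-101442259, plus strand): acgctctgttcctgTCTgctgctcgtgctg
Rps15 (chr10:80292416-80292445, plus strand): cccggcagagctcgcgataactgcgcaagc
Rps6 (chr4:86857353-86857382, minus strand): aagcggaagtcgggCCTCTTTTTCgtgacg
Rpl10l (chr12:66284387-66284416, minus strand): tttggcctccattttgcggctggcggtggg
Rpl39l (chr16:10170213-10170242, plus strand): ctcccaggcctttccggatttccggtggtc

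The run held 11 bases in Rps18, 11 in Rpl28, 20 in Rpl27a (1 of them beyond the window), 10 in Rps6 and 3 in Rpl27. In the other 5 the annotated first base was a purine, so no run held it. A run of 8 or more at the annotated start was present in 3.86% of all 32851 promoters of the table. Long runs occurred in a gene that was lower in pool 2 (Rps18), in one that was higher (Rpl28), and in Rpl27a, whose probes differed: its brightest probe was higher by 0.05, another was at 0.08 and another at -0.42, with -0.10 for their mean. CCGGAAG, searched on both strands of the 300 bases of each entry, was present in Rps18, Rpl27a, Rps6 and Rpl39l and in 8.86% of all promoters. ATGGCG, searched in the same way, was present in Rps18, Rpl28, Rpl27a, Rps15, Rpl10l and Rpl39l and in 8.93% of all promoters. TATAAA on the gene's strand in the 50 bases before the start was present in none of the 10 and in 2.63% of all promoters. In Rpl36a, TATAAA lay just after the annotated start. A count over the whole family is not given, since 65 of the 84 members had an entry. That is 77.4%, under the 80% set as the minimum.

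The arrays measured nearly the whole family well. Levels are log2 processed signal relative to the array's 75th percentile, so a level of 6 is a signal 2 to the power of 6 times that percentile. Genes entered the test if their probe stood well above background on every array of WT, of STAP-2-/- or of both, and 15562 genes did. All 74 subunit genes, both non-subunit members and 5 of the 8 paralogs were well above background on all 4 arrays, giving 81 tested members. No member spot was saturated. The brightest reached 53.7% to 66.9% of the scanner's ceiling across arrays. The 81 probes carried 5.24% of the signal of all probes on WT 1, 5.24% on WT 2, 5.42% on STAP-2-/- 1 and 5.04% on STAP-2-/- 2. STAP-2-/- 1 was thus the array with the largest share and STAP-2-/- 2 the one with the smallest.

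As a check of the labels, the level of Stap2 was 2.92 on WT 1 and 2.98 on WT 2. It was -6.63 on STAP-2-/- 1 and -7.72 on STAP-2-/- 2, neither of them well above background. WT was at least 722-fold higher, taking as the lower value on each STAP-2-/- array the dimmest probe that was well above background. The adjusted p was 0.31 (limma, Benjamini-Hochberg). The fit with 2 arrays per genotype thus did not call even this gene, and a member's p-value above the threshold does not show that its level was equal. The titles call the pools biological replicates and give no more on their mice, so p-values measure the spread between these samples. The arrays shared 1 slide and 1 scan. Between 68.4% and 70.5% of spots were well above background.

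**Figure D1:**
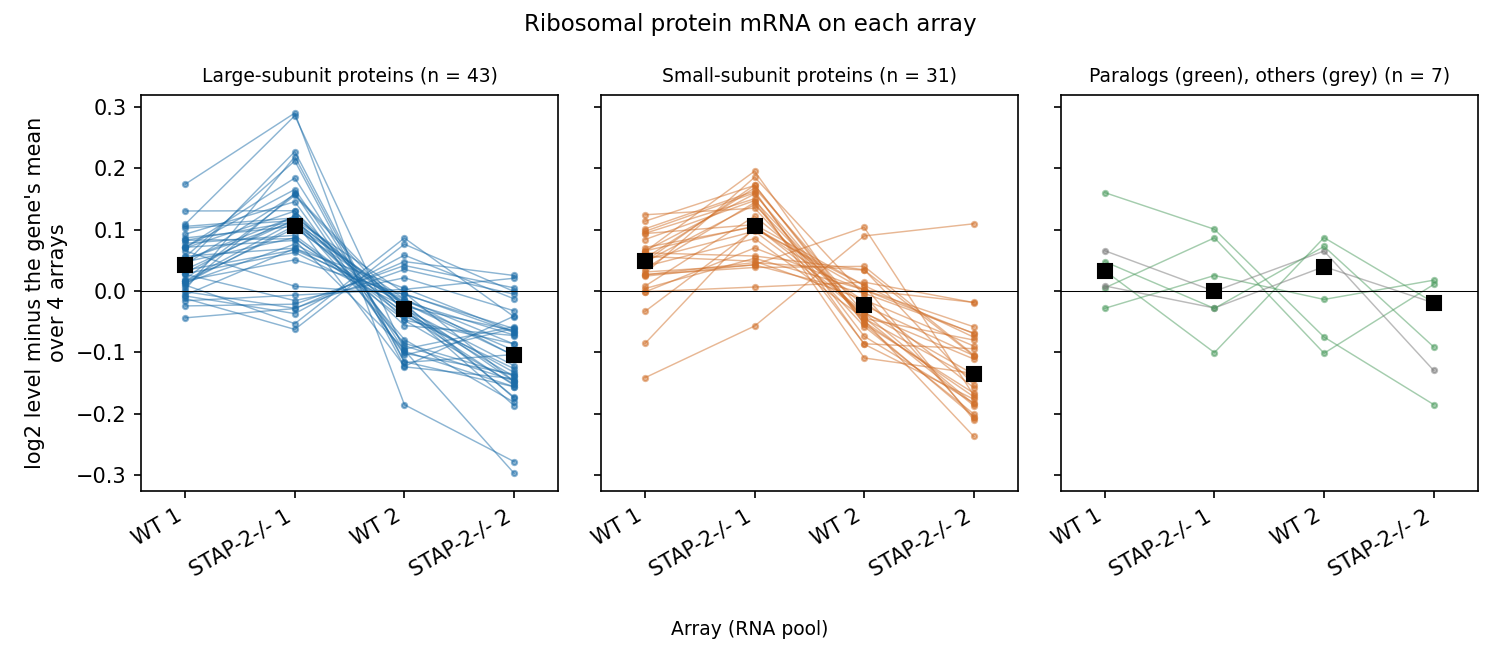
Level of each tested ribosomal protein gene on each array, as log2 level minus that gene's own mean over the 4 arrays. Thin lines join the 4 values of a gene and black squares are medians of the panel; the medians of large-subunit genes were 0.04 on WT 1, 0.11 on STAP-2-/- 1, -0.03 on WT 2 and -0.11 on STAP-2-/- 2.

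The first question of the design was whether ribosomal protein messages differed in level when STAP-2 was missing. They differed little: the median log2 difference of the 81 members, STAP-2-/- minus WT, was -0.015, against -0.007 over all 15562 genes, and 30 members were higher and 51 lower (48.3% and 51.7% of all genes). Single members lay between -0.13 (Rps23rg1) and 0.11 (Rpl3). No member was called at an adjusted p of 0.05 by limma, where 0% of all genes were called. No member had an unadjusted p under 0.05 either, where 2.09% of all genes (325) did. The median was -0.011 for the 43 large-subunit genes and -0.015 for the 31 small-subunit genes. With quantile scaling the median of all members took the other sign, at 0.004, with 45 higher and 36 lower.

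The 95% interval of the difference stayed within a 2-fold change either way for all 81 members, against 76.9% of all genes. It stayed within a 1.5-fold change for 74 members, against 38% of all genes. The median half-width of that interval was 0.42 for members and 0.52 for all genes. The values of all genes are over bright and dim probes alike.

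**Figure D2:**
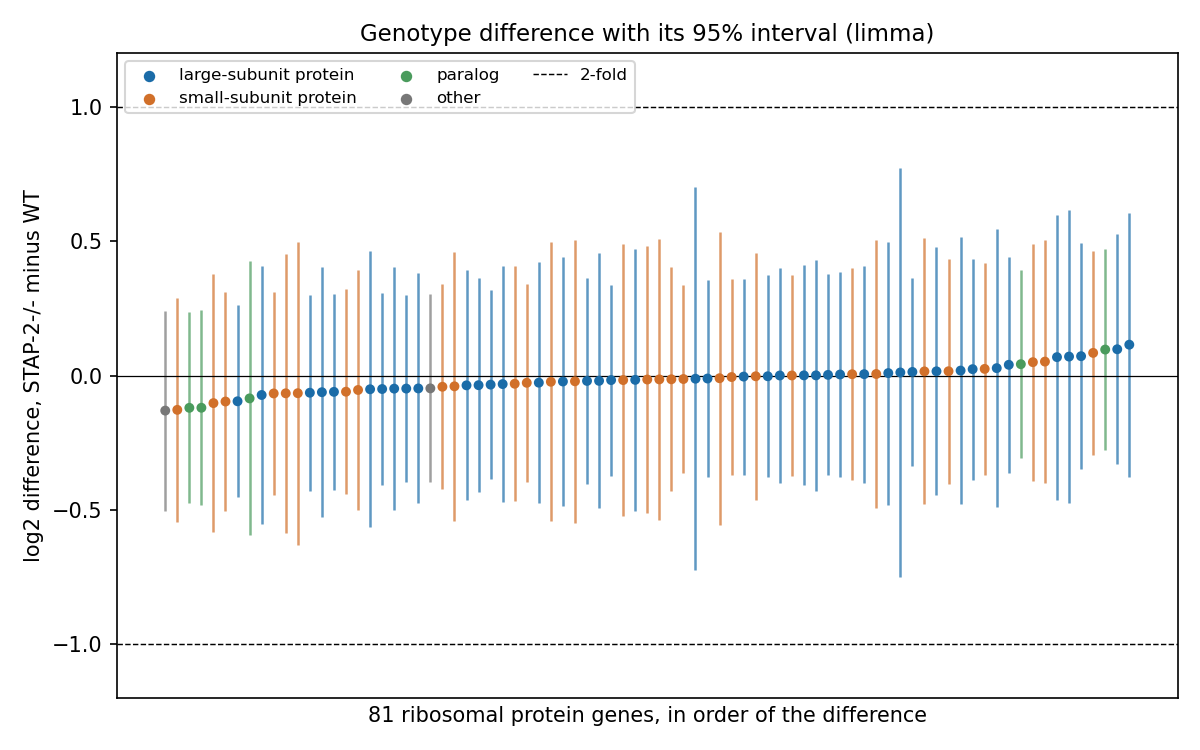
STAP-2-/- minus WT log2 difference of the 81 tested ribosomal protein genes (points) with its 95% interval from limma (bars), in order of the difference; 2 arrays per genotype. Every bar crosses 0 and lies inside the dashed lines at a 2-fold change, and the widest belong to Rpl36a and Rpl9.

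Among large-subunit proteins, Rpl3, which lies close to the peptidyl transferase centre, had the highest difference. Rpl3 read 5.72 and 5.60 in WT and 5.94 and 5.61 in STAP-2-/-, a difference of 0.11 with an interval of -0.38 to 0.61. STAP-2-/- 1 alone was high, and the groups overlapped. Rpl36 (difference 0.10) and Rpl4 (0.07), both proteins of the large subunit, followed with the same overlap. Rpl14 was at the other end among large-subunit genes. Rpl14 read 7.03 and 7.11 in WT and 6.97 and 6.98 in STAP-2-/-, a difference of -0.10 with an interval of -0.45 to 0.26. Both STAP-2-/- arrays lay below both WT arrays on this brightest probe, while another Rpl14 probe was at 0.01.

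Among small-subunit proteins, Rps15a had the lowest difference. Rps15a read 5.85 and 5.93 in WT and 5.87 and 5.66 in STAP-2-/-, a difference of -0.13 with an interval of -0.54 to 0.29. The groups overlapped because STAP-2-/- 2 alone was low. Rps24 (-0.10) and Rps27a (-0.10) were placed next, again with STAP-2-/- 2 as the lowest array. These values are from the brightest probes. Other probes well above background on all 4 arrays gave -0.06 and 0.13 for Rps15a, -0.25 and 0.03 for Rps24 and -0.008 for Rps27a. Rps27a is made as a fusion with ubiquitin. Rps2, at the messenger RNA entrance of the small subunit, was highest at 0.08.

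Genotypes did not overlap for 10 of 81 members, 2 higher and 8 lower in STAP-2-/-, against 24.9% of all genes, 11.5% higher and 13.4% lower. In the 74 subunit genes this was the case for 4 (Rpl14, Rpl21, Rpl24 and Rpl5, all lower by the brightest probe), and for none of the 31 small-subunit genes. It was the case for 4 of the 5 paralogs tested. By dimmer probes, also well above background on all 4 arrays, Rpl14 (0.01), Rpl21 (0.13 and 0.01) and Rpl24 (0.04) were higher in STAP-2-/-. For Rpl24 the dimmer probe was higher without overlap, so its direction depended on the probe. Rps27l, a paralog of Rps27 known as a p53 target, read 4.75 and 4.78 in WT and 4.68 and 4.61 in STAP-2-/-, a difference of -0.12 with an interval of -0.47 to 0.23. Rpl36al, nearly identical to Rpl36a, read 4.46 and 4.51 in WT and 4.32 and 4.41 in STAP-2-/-, a difference of -0.12. For both, the STAP-2-/- arrays were the lower pair.

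Rpl7l1, a paralog of Rpl7 with a role in ribosome assembly, read -1.62 and -1.73 in WT and -1.54 and -1.62 in STAP-2-/-, a difference of 0.10. Rpl32l differed by 0.04, and both were higher in STAP-2-/- without overlap. Rpl22l1, the paralog of Rpl22, differed by -0.08 with overlap. A probe for one copy of a near-identical pair may also bind the other, which was not tested. The remaining 3 paralogs, Rpl3l, known from striated muscle, and Rpl10l and Rpl39l, known from the testis, were well above background on no array. Of the non-subunit members, Rps19bp1, a partner of Rps19 that regulates the deacetylase Sirt1, differed by -0.05 and Rps23rg1 by -0.13.

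Members with known roles outside or beyond the ribosome gave the same picture, with 3 of 11 higher and 8 lower and a median of -0.02. Rpl5 and Rpl11 bind the p53 inhibitor Mdm2 when ribosome assembly fails. They differed by -0.05 and -0.02. Rpl13a, which is released from the ribosome in inflammation and silences inflammatory messages, differed by 0.02. Rps3, which also takes part in DNA repair and NF-kB binding, differed by -0.02. Rps6, the substrate of the S6 kinases, read 6.47 and 6.48 in WT and 6.54 and 6.40 in STAP-2-/-, and the WT arrays lay between the STAP-2-/- arrays. Rps19 and Rps14, both affected in inherited or acquired failures of red cell formation, differed by 0.05 and -0.07. Rpsa, the laminin receptor, differed by -0.02, and Rpl10 and Rpl38 by -0.04 each.

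Ribosomal proteins that carry other symbols gave similar values. The stalk proteins Rplp0, Rplp1 and Rplp2 differed by -0.03, -0.03 and -0.004, Fau, made as a fusion with a ubiquitin-like protein, by 0.02, and the scaffold Rack1 by 0.003. None of these 5 was free of overlap between the genotypes.

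The second comparison took pool 2 against pool 1 across both genotypes. Here most members were lower in pool 2: 70 of 81, with a median log2 difference of -0.15, against 55.2% of all genes and a median of -0.04. The other 11 were higher, as were 44.8% of all genes. All genes take in many dimmer probes, with a median level of -0.58 on WT 1 against 6.11 for members. No member was called by limma at an adjusted p of 0.05 (0% of all genes), and 2 members had an unadjusted p under 0.05, where 25.3% of all genes (3944) did. With an intensity trend and robust estimation in limma, 25 members and 26.5% of all genes (4127) did, and again no member was called (lowest adjusted p 0.079). The 95% interval stayed within a 2-fold change for all 81 members (80.7% of all genes) and within a 1.5-fold change for 78 (47.6%). Single members lay between -0.46 (Rpl36a) and 0.20 (Rps15). The median was -0.15 for large-subunit and -0.17 for small-subunit genes. Size and counts depended on scaling. With quantile scaling 50 members were lower and 31 higher, with a median of -0.032 against 0.013 for all genes. With median scaling 52 were lower and 29 higher, with a median of -0.057 against 0.053.

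The labels do not say what pools of one number share. On the slide, both pools numbered 1 lay at positions 1 and 2 and both numbered 2 at positions 3 and 4. Pool number and position therefore cannot be told apart.

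The arrays of the pool numbers did not overlap for 63 of 81 members, 58 lower and 5 higher in pool 2. Over all genes this was 62.4%, with 36% lower and 26.4% higher. Of the 31 small-subunit genes, 23 were lower without overlap and 1, Rps15, was higher. Of the 43 large-subunit genes, 34 were lower without overlap and 4 higher (Rpl23a, Rpl27, Rpl27a and Rpl28), each by its brightest probe. For Rpl23a that probe was at 0.02, and its other probe was lower in pool 2 without overlap, at -0.02. Other probes of Rpl27a were at 0.08 and -0.42, and the other probe of Rpl27 was at 0.24. Of the 5 tested paralogs, 1 (Rpl22l1) was lower without overlap.

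Rpl36a, a protein of the large subunit's exit site, had the largest difference and also the largest SD over the 4 arrays, 0.27. Rpl36a read 5.18 on WT 1 and 5.29 on STAP-2-/- 1, and 4.82 on WT 2 and 4.72 on STAP-2-/- 2. Its difference was -0.46 (SE 0.11) with an adjusted p of 0.13 (limma). Both pool 2 arrays lay below both pool 1 arrays. These values are from its brightest probe. Another Rpl36a probe was at -0.47 and another at -0.09, both well above background on all 4 arrays. The paralog Rpl36al did not follow the brightest probe, at 0.07 with overlap.

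Rpl9, of the large subunit, read 7.37 and 7.55 in pool 1 (WT, then STAP-2-/-) and 7.17 and 6.97 in pool 2. Its difference was -0.39 (SE 0.13) with an adjusted p of 0.18 (limma). STAP-2-/- 1 was the highest array and STAP-2-/- 2 the lowest. Rps18, of the small subunit's head, read 5.57 and 5.63 in pool 1 and 5.41 and 5.22 in pool 2, a difference of -0.29. Rpl10a, at the large subunit's side stalk, differed by -0.27, from 6.97 and 7.15 to 6.81 and 6.77. All 3 had the same order of arrays.

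At the other end, Rps15, a small-subunit protein, read 5.46 and 5.54 in pool 1 and 5.69 and 5.71 in pool 2, a difference of 0.20 (SE 0.10) with an adjusted p of 0.29 (limma). Both pool 2 arrays were higher. Rpl27, Rpl28 and Rpl27a, all of the large subunit, followed at 0.08, 0.07 and 0.05, the last by its brightest probe (-0.10 for the mean of its probes). Rps23, at the decoding centre, was the steadiest subunit gene, with an SD of 0.014 over the 4 arrays. It read 6.49, 6.50, 6.49 and 6.47 on WT 1, WT 2, STAP-2-/- 1 and STAP-2-/- 2.

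**Figure D3:**
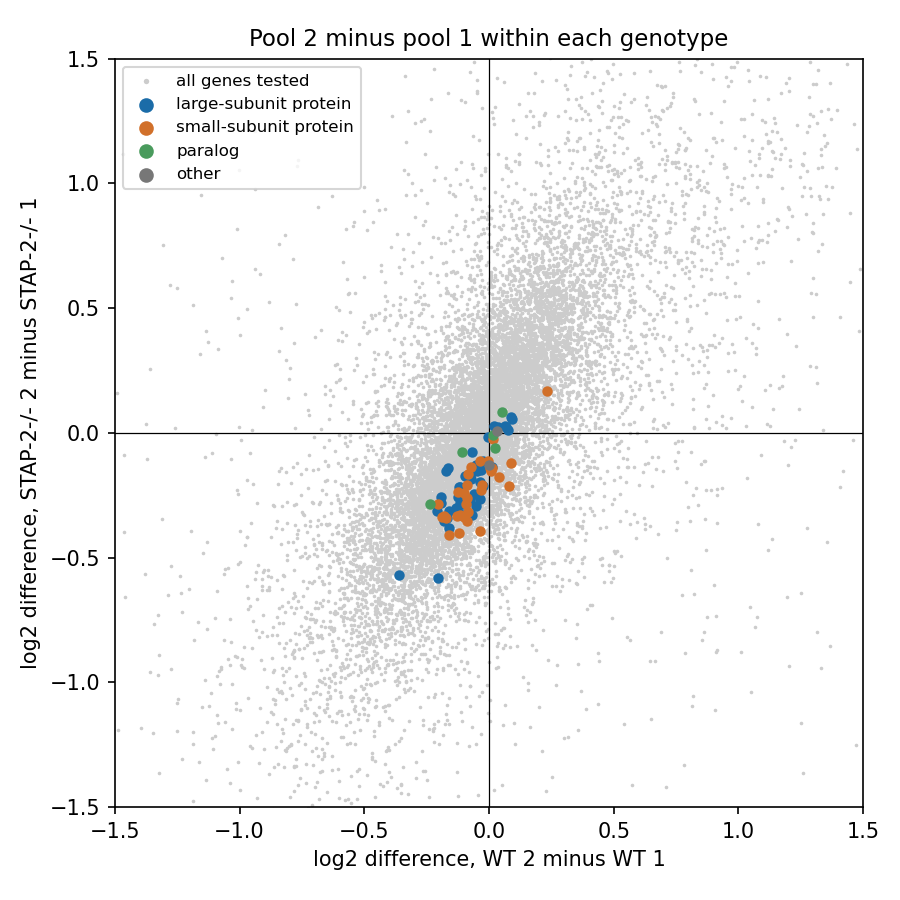
Pool 2 minus pool 1 log2 difference in WT (x axis) and in STAP-2-/- (y axis) for each tested gene with values on all arrays (grey, 15551 genes, 594 of them outside the axes) and for the 81 ribosomal protein genes (coloured by class). Most coloured points sit at the lower left, below 0 on both axes, with medians of -0.08 in WT and -0.21 in STAP-2-/-.

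The pool difference was larger in STAP-2-/-. WT 2 was below WT 1 for 61 of 81 members, with a median of -0.08 and an SD over genes of 0.09. STAP-2-/- 2 was below STAP-2-/- 1 for 71 members, with a median of -0.21 and an SD over genes of 0.14. Of all 15562 genes, 8885 were lower in WT 2 than in WT 1 and 8377 in STAP-2-/- 2 than in STAP-2-/- 1, with medians of -0.04 in both. The family's spread around its median was narrow beside that of all genes, whose SDs were 0.42 in WT and 0.66 in STAP-2-/-. Those SDs are over bright and dim probes alike. Mitochondrial ribosomal protein genes (0.15 and 0.23) and ribosome assembly genes (0.18 and 0.27) also had smaller SDs than all genes. With 1 array per cell of the design, the difference between the WT and STAP-2-/- values has no test.

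The same 4 arrays gave opposite signs of the genotype difference in the pools. In pool 1, STAP-2-/- was above WT for 68 of 81 members, with a median of 0.05. Over all 15562 genes this held for 7710, with a median of -0.003. In pool 2, STAP-2-/- was below WT for 73 members, with a median of -0.08. Over all genes this held for 8058, with a median of -0.011. The highest array was STAP-2-/- 1 for 61 members and the lowest was STAP-2-/- 2 for 64, and both held for 54 of 81 members, against 17.1% of all genes. The genotype median near 0 was thus the mean of a STAP-2-/- array above and a STAP-2-/- array below the WT arrays. Without STAP-2-/- 1 the members' genotype median was -0.12 with 6 of 81 higher, and without STAP-2-/- 2 it was 0.09 with 65 higher. Without WT 1 it was 0.02 and without WT 2 it was -0.05.

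**Figure D4:**
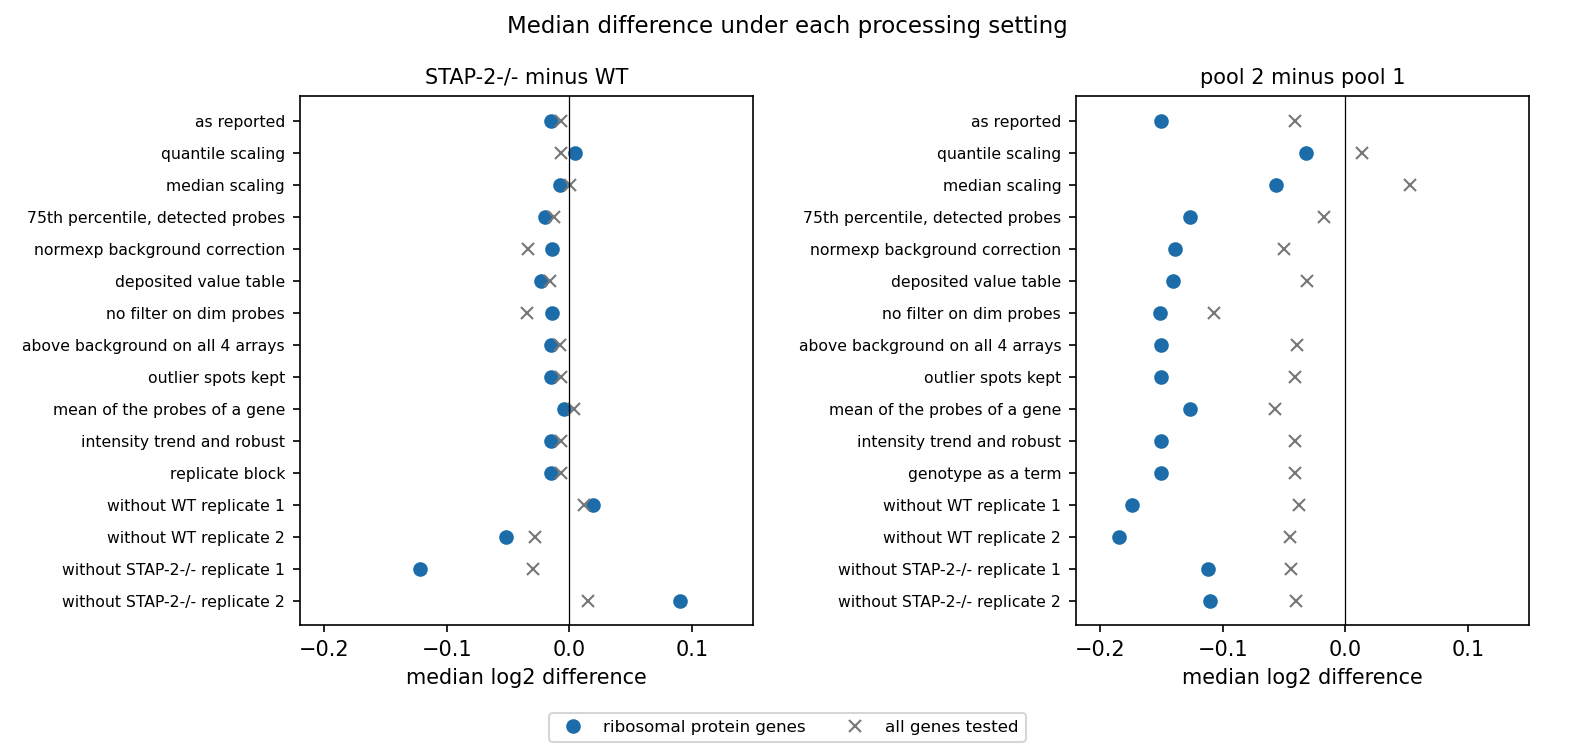
Median log2 difference of the ribosomal protein genes (circles) and of all genes tested (crosses) under each processing setting, for genotype (left) and pool number (right). The genotype medians stay between -0.12 and 0.09, with the outer values when a STAP-2-/- array is left out; the pool medians are all below 0, from -0.18 to -0.032.

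Different probes of a gene gave a measure of how far one probe can be relied on. The 84 members had 170 probes, of which 164 were well above background on all 4 arrays, and 50 genes had at least 2 such probes. The 83 probes not used above had a median pool difference of -0.14, with 67 lower in pool 2, and a median genotype difference of 0.002, with 43 higher in STAP-2-/-. Within a gene, probes differed in the sign of the genotype difference for 23 of 50 genes and of the pool difference for 13. The probes of Rpsa ranged most, from -0.69 to -0.04 between the pool numbers. For Rps24 the genotype difference ranged from -0.25 to 0.03 between probes. The Rps24 probes were named from different RefSeq transcripts, and whether they read different forms of the message was not tested.

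Genes around the ribosomal proteins were taken from lists of related functions. In the genotype comparison, no gene of these lists was called by limma. Of 38 ribosome assembly genes, 31 were higher in STAP-2-/- and 7 lower, with a median of 0.12, and 16 were higher without overlap, where 11.5% of all genes were. The highest were Rrp9 (0.48), which binds the U3 small nucleolar RNA, and Nob1 (0.39), the nuclease that finishes the small-subunit RNA. The lowest were Nop10 (-0.22) and Tcof1 (-0.19). Other genes known for a TOP motif, such as elongation factors, had a median of 0.01, with 9 of 17 higher. Translation factors had a median of -0.001 with 11 of 23 higher, and mTOR and Myc pathway genes 0.11 with 10 of 15 higher. The 77 tested mitochondrial ribosomal protein genes, which serve the organelle's own ribosome, had a median of 0.005 with 42 higher.

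Between the pool numbers these lists did not share the family's median. TOP genes that encode no ribosomal protein had a median of 0.04 with 9 of 17 higher in pool 2, mitochondrial ribosomal protein genes -0.01 with 37 of 77 higher, and translation factors -0.09 with 10 of 23 higher. Ribosome assembly genes had -0.07 with 11 of 38 higher and mTOR and Myc pathway genes -0.22 with 5 of 15 higher. Rplp0, Rplp1, Rplp2, Fau and Rack1 were all lower in pool 2 without overlap, with a median of -0.15. The lists also differed in level. On WT 1 the median level was 6.11 for members and 7.10 for these last 5 genes. It was 3.35 for TOP genes, 3.19 for translation factors and 2.29 for mitochondrial ribosomal protein genes. For mTOR and Myc pathway genes it was 0.72, and for ribosome assembly genes 0.47. Whether the lists differ from the family, and the part of level in these values, was not tested.

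Markers of cell types in the colon also moved with the pool number, and their part in the values above was not tested. In whole tissue, fewer cells of a type and less RNA per cell cannot be told apart. Epithelial (7 of 7) and smooth muscle (6 of 6) markers were well above background on all 4 arrays. Summed marker levels are given in multiples of the array's 75th percentile, in the order WT then STAP-2-/-. T cell markers were higher in pool 2 for 6 of 6, with sums of 1.53 and 1.72 in pool 1 and 1.88 and 3.31 in pool 2. Adipocyte markers were lower for 4 of 4, with sums of 32.3 and 19.0 in pool 1 and 21.0 and 15.3 in pool 2. Neutrophil markers were higher for 3 of 4, with S100a9 at -4.08 and -3.71 in pool 1 and 1.02 and -1.30 in pool 2. Their sums ran the other way, 58.4 and 57.0 against 52.5 and 44.0, because Csf3r, the lower marker, gave most of the sum. The median log2 level of the tested neutrophil markers was -4.44 on WT 1. Csf3r was thus far brighter than most of them, and what its probe reads in whole colon was not tested.

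Stem and dividing cell markers were higher in pool 2 for 3 of 5 (sums 12.6 and 14.3 against 17.1 and 18.1) and epithelial markers for 3 of 7 (328 and 312 against 321 and 369). Fibroblast markers were higher in pool 2 for 4 of 5, with a median of 0.62 and sums of 67.2 and 62.6 against 83.6 and 58.3. Between genotypes, T cell markers were higher in STAP-2-/- for 6 of 6, with sums of 1.53 and 1.88 in WT and 1.72 and 3.31 in STAP-2-/-. Smooth muscle markers were lower for 6 of 6 (sums 337 and 330 against 294 and 285) and fibroblast markers for 5 of 5 (67.2 and 83.6 against 62.6 and 58.3). Glial and neuronal markers were lower for 4 of 4, with a median of -0.30 and sums of 1.70 and 1.76 against 1.31 and 1.46. Stem and dividing cell markers were higher in STAP-2-/- for 4 of 5, with a median of 0.33, 2 of them at an unadjusted limma p under 0.05, and sums of 12.6 and 17.1 against 14.3 and 18.1. That is the direction of the ribosome assembly genes, and the part of these markers in their values was not tested. The remaining counts are of tested markers that were higher. In STAP-2-/- these were 3 of 7 epithelial, 1 of 6 B and plasma cell, 1 of 4 neutrophil, 1 of 3 macrophage, 1 of 4 adipocyte and 2 of 3 liver or pancreas markers. In pool 2 these were 3 of 6 smooth muscle, 3 of 6 B and plasma cell, 2 of 3 macrophage, 3 of 4 glial and neuronal and 1 of 3 liver or pancreas markers. None of these markers was called by limma in either comparison.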

How the data were processed

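Expression was measured on 4 Agilent 1-colour mouse arrays. Per the file headers, the authors' deposited files give, per spot, a processed intensity from which background had been subtracted, with no scaling between arrays. They were made with Agilent Feature Extraction 10.7.1.1, per the submitters' processing notes. A second deposited table gives a ratio, the same signal divided by a constant per array (within 1% for at least 99.9% of the probes compared on each array, with column medians of 0.084 to 0.091), and served as an alternative.

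Control and outlier-flagged spots were left out, and repeated spots were averaged by probe. Each array's 75th percentile was subtracted on the log2 scale. Accessions were matched without versions to RefSeq (GRCm38.p6), which named 27427 of 39429 probes. Each gene was represented by its brightest probe. Genotypes, and pool numbers, were compared over all 15562 genes with limma 3.58.1 (lmFit, eBayes) in R 4.3.3, without covariates, taking 0.05 as the threshold after Benjamini-Hochberg adjustment. The genotype difference of 1 gene, no member, had no estimate because its spots were missing. The fit was tested on simulated data. Python 3.11.15 with pandas 2.3.3 and matplotlib 3.10.9 was used for the rest.

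Members and lists were chosen with earlier results of these data known. Named genes are the 4 highest and 4 lowest subunit genes per comparison, those with the largest and smallest SD, all paralogs, members with textbook roles, subunit genes with other symbols, Stap2, and the extremes of the lists. Rpl32l was added to the paralogs and Rps23rg1 set apart from them after their values were seen. Rpl21, Rpl24, Rpl23a and the markers S100a9 and Csf3r were named after their values were seen. One listed gene is not reported here. The number of arrays limits the precision. Alternatives were other scalings, normexp (offset 50) on the median spot intensity, other filters, flagged spots kept, the mean of a gene's probes, a trend with robust fit, the replicate number as a block (genotype as a term for the pool comparison), and leaving out each array.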

Additional observations from a re-analysis of the deposited data

Results flagged for a closer look

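The genotype difference (STAP-2-/- minus WT) had opposite signs in pool 1 and pool 2 for the median of the family and for 18 of 34 named members, with 1 array per cell of the design, so the change between pools was not tested. All were lower in pool 2 than in pool 1. The share of all genes with opposite signs was not counted. Some of these differences lay near 0 in both pools, as for Rps23 (0.008 in pool 1 and -0.033 in pool 2) and Rpl28 (0.015 and -0.023). The pool 2 difference less the pool 1 difference was -0.13 for the median of all members, -0.11 for large-subunit genes and -0.16 for small-subunit genes, on the log2 scale.

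Among large-subunit proteins it was -0.38 for Rpl9, -0.22 for Rpl10a, -0.21 for Rpl36a, -0.16 for Rpl11, -0.098 for Rpl10, -0.098 for Rpl38, -0.039 for Rpl27a and -0.038 for Rpl28. Among small-subunit proteins it was -0.36 for Rps3, -0.29 for Rps15a, -0.26 for Rpsa, -0.25 for Rps18, -0.23 for Rps24, -0.21 for Rps2, -0.15 for Rps14, -0.14 for Rps6, -0.12 for Rps19 and -0.041 for Rps23. For Rps23 the SD over the 4 arrays was 0.014.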

How the results depend on the processing

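Each comparison was repeated under 15 alternatives. No member was called under any of them. Over all genes, 1 was called between genotypes with normexp correction (Stap2, adjusted p 0.0051, limma), and leaving out an array gave 0 to 1 genes called between pool numbers (1 without WT 1). The members' genotype median was -0.12 to 0.090 when an array was left out. Their pool median was -0.032 with quantile scaling and -0.057 with median scaling, and the cause was not tested. The number of arrays limits all of these. By the labels, pools of one number share the number and nothing else. On the slide they also lay side by side, so number and position cannot be told apart. Over 15145 genes the pool 1 minus pool 2 difference correlated at r = 0.63 between the genotypes, a hint from the data. With the replicate block, 0 genes were called and the members' genotype median stayed at -0.015. Genes with an unadjusted limma p under 0.05 between genotypes rose from 325 to 1040, with 0 members among them in either fit. The genotype intervals and p-values in the Results are from the fit without the block. With genotype as a term in the pool comparison, 0 genes were called.

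Signs turned in 67 of 599 values of named genes between genotypes and in 36 of 599 between pool numbers, 5 and 11 of them by more than 1 SE. None of those values was past the threshold, and causes were not tested. Between genotypes, the turned values were, with quantile scaling, Rpl28 0.012, Rpl38 0.0074, Rpl9 0.0014, Rplp1 0.017, Rplp2 0.025 and Rps23 0.026. They were Rpl28 0.0036 and Rplp2 0.0038 with median scaling, Rack1 -0.0023 and Rps6 -0.0048 with the percentile over detected probes, and Rack1 -0.0054 and Rps6 -0.0079 in the deposited table. With normexp they were Rack1 -0.018, Rpl13a -0.0096, Rplp1 0.0011, Rplp2 0.025 and Rps6 -0.0082, and with the mean of a gene's probes Rps27a 0.13, Rps3 0.070 and Rpsa 0.046.

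Between pool numbers, they were, with quantile scaling, Fau 0.050, Rpl10 0.027, Rplp0 0.019, Rplp2 0.039, Rps15a 0.053, Rps2 0.089, Rps23 0.12, Rps27l 0.073 and Rps6 0.048. With median scaling they were Rpl7l1 0.0026, Rps15a 0.027, Rps2 0.076, Rps23 0.089, Rps23rg1 0.029, Rps27l 0.075 and Rps6 0.026. With the percentile over detected probes they were Rps2 0.0063, Rps23 0.019 and Rps27l 0.0048. They were Rps23 0.0047 in the deposited table and Rps2 0.044 with normexp. With the mean of a gene's probes they were Rpl27a -0.10, Rps15a 0.083 and Rps27a 0.44. The mean for Rps27a takes in a probe well above background on only 1 array. That probe was at 1.60 between pool numbers and 0.50 between genotypes.

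Leaving out each array turned 27 genotype differences, which ranged as follows: Fau -0.079 to 0.11, Rack1 -0.14 to 0.15, Rpl10 -0.14 to 0.072, Rpl10a -0.12 to 0.26, Rpl11 -0.16 to 0.12, Rpl13a -0.059 to 0.11, Rpl22l1 -0.23 to 0.058, Rpl27a -0.050 to 0.016, Rpl28 -0.050 to 0.042, Rpl3 -0.046 to 0.28, Rpl36 -0.012 to 0.21, Rpl36a -0.27 to 0.30, Rpl38 -0.12 to 0.052, Rpl4 -0.015 to 0.16, Rpl9 -0.30 to 0.28, Rplp0 -0.14 to 0.092, Rplp1 -0.11 to 0.048, Rplp2 -0.095 to 0.087, Rps14 -0.23 to 0.10, Rps15 -0.064 to 0.17, Rps18 -0.27 to 0.14, Rps19 -0.069 to 0.17, Rps24 -0.26 to 0.057, Rps27a -0.20 to 0.0086, Rps3 -0.22 to 0.17, Rps6 -0.069 to 0.070 and Rpsa -0.19 to 0.16. It turned 9 pool differences: Rpl14 -0.020 to 0.11, Rpl32l -0.023 to 0.030, Rps15a -0.20 to 0.070, Rps19bp1 -0.0096 to 0.049, Rps2 -0.11 to 0.077, Rps23 -0.022 to 0.012, Rps23rg1 -0.16 to 0.033, Rps27l -0.10 to 0.063 and Stap2 -5.87 to 4.84.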
